A study of Mus musculus with 12 samples.

Results

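The mRNAs of 31 constitutive proteasome subunits were followed in the RNA-seq libraries of 6 numbered mice. The members were all genes of a fixed list of subunits of the 20S core and the 19S particle, matched by symbol, and all 31 were among the 15002 genes with a summed count of at least 10 in every library. The study compared cortex of 6 samples labelled Larp1 WT, which carry Nestin-Cre, with 6 samples labelled as Larp1 KO, which carry Nestin-Cre and Larp1-flox/flox, so both genotypes share the Cre transgene. Nestin-Cre acts in neural progenitors, and the neurons and some glia that arise from them therefore lose the floxed gene, while cells of other origin keep it. The mice were males on a C57BL/6J background, and the sources used do not give the age of those used for these libraries. Which of mouse 678, 687, 688, 698, 700 and 703 was of which genotype is not known here, so values below are those of single libraries or their range and median over all 6, no group of libraries was averaged, and no test between genotypes was run. The study sequenced RNA of cortex from 3 mice of each genotype and, separately, RNA of synaptosomes, which are isolated nerve terminals. The files were taken as cortex libraries because each labelled sample is cortex, but the files do not state the tissue, and whether each is of whole cortex or a fraction of it is not known here. All 4 markers of excitatory cortical neurons were detected, with Slc17a7, the vesicular glutamate transporter of these cells, at 346.52 to 491.86 TPM, while the cerebellar markers Gabra6 and Pcp2 did not exceed 0.02 and 0.09 TPM.

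The proteasome is the large protease that degrades proteins tagged with ubiquitin. Its barrel-shaped 20S core is built from outer rings of alpha subunits, which gate the entry, and inner rings of beta subunits, some of which carry the proteolytic sites inside the chamber. The 19S particle caps the core, and its base holds a ring of ATPases that unfold the substrate, while its lid removes the ubiquitin chain. Neurons rely on this machine for turnover of synaptic and misfolded proteins, and because the subunits are used together in fixed proportions, their mRNAs make a natural set in which to ask how evenly a complex is supplied with mRNA.

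Levels between genes were compared in TPM, a share of RNA molecules scaled by transcript length and summed here over all isoforms of a gene. The 31 mRNAs summed to 1087.5, 977.0, 919.4, 1006.1, 934.3 and 1170.3 TPM in mouse 678, 687, 688, 698, 700 and 703, so the library of mouse 703 was highest and that of mouse 688 lowest. These sums depend on how much of each library was other RNA, and mouse 678 was highest, with mouse 688 still lowest, in TPM over nuclear protein-coding genes and in both scalings of CPM. Nuclear protein-coding genes held 22.7% of TPM in mouse 700 and 28.8% in mouse 703, and annotated miscellaneous RNA held 36.4% to 47.8%, while the members held 0.377% to 0.417% of the TPM of nuclear protein-coding genes. The median member stood at 30.69 TPM, against 6.75 TPM for the median of 13618 detected nuclear protein-coding genes. Ranked among those genes by median TPM, the members lay between the 72.0 and the 93.8 percentile. Counts of the members ran from 725 to 5753 per library, for which the counting error is 3.71% down to 1.32%, and total depth ran from 34689262 to 44463362 expected counts.

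**Figure D1:**
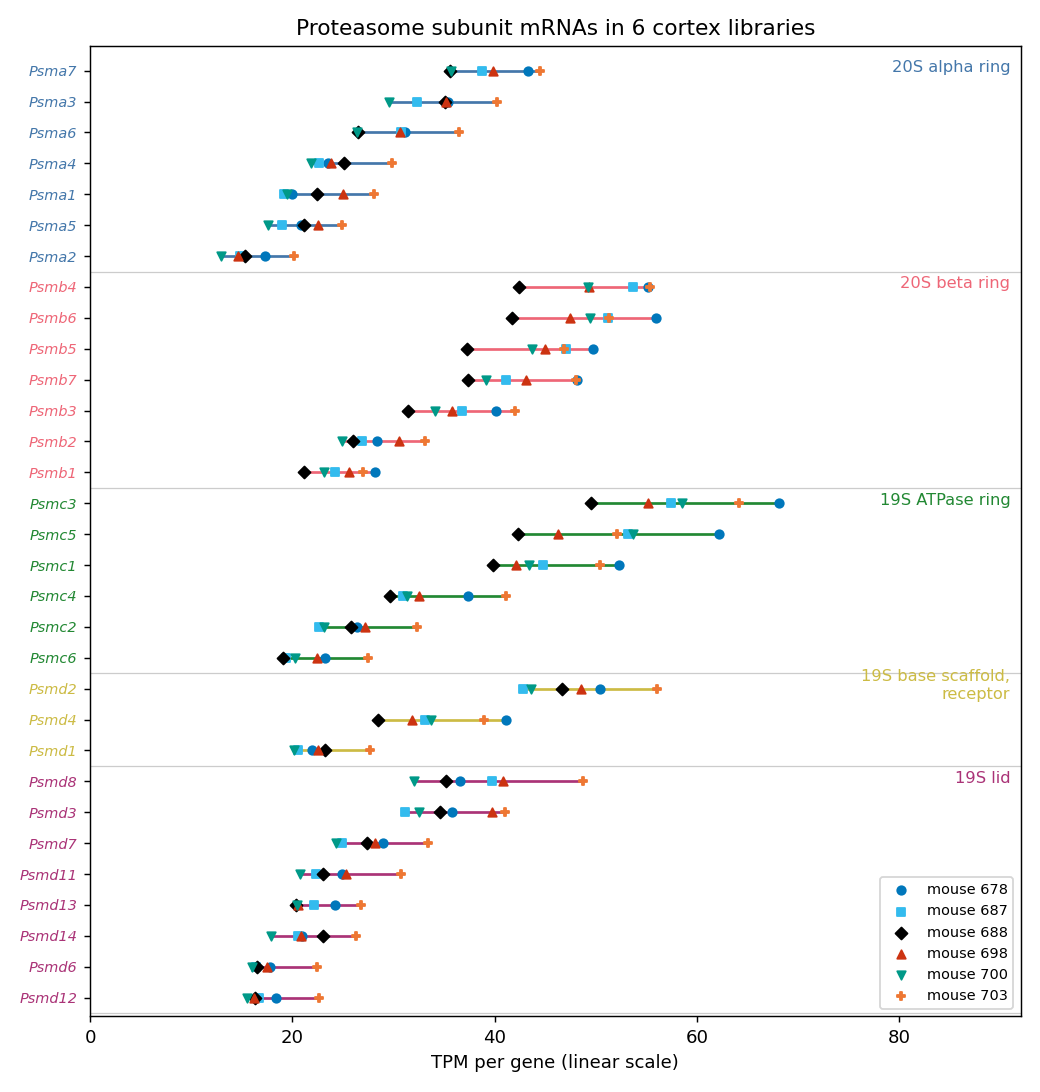
TPM of each of the 31 members on a linear axis, with 1 point per library and a line from the lowest to the highest library. Members are grouped by sub-complex and ordered by median, and they span from Psma2 at a median of 15.08 TPM to Psmc3 at 57.98 TPM.

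Subunits that sit in the same complex in equal number did not have equal mRNA. Within a library, the highest member exceeded the lowest by 3.18- to 4.52-fold in TPM. Psmc3, an ATPase of the 19S base, had the highest TPM in every library (49.48 to 68.16 TPM, median 57.98), and Psma2, an alpha-ring subunit, had the lowest in every library (12.96 to 20.19 TPM, median 15.08). These ends are for all isoforms summed. On coding isoforms, Psmc5 exceeded Psmc3 in mice 678, 687 and 700, and Psmc3 exceeded Psmc5 in mice 688, 698 and 703. In mice 678, 687 and 700, Psmc5-201 had 59.81, 51.90 and 52.12 TPM. The coding isoforms of Psmc3 there were Psmc3-202, at 47.90, 37.31 and 37.59 TPM, and Psmc3-210, at 8.55, 10.75 and 13.31 TPM. All TPM of Psma2 was in protein-coding isoforms. The only coding isoform of Psmc6 was lower than Psma2 in every library, at 10.5, 11.72, 12.71, 10.52, 10.02 and 13.41 TPM. The coding isoforms of Psmd13 together were also below Psma2 in every library, and those of Psma3 in mice 678, 687, 700 and 703. Between Psmc3 and Psma2 the order over all isoforms was less certain. Of the 30 pairs of neighbours in the order of medians, 7 were ordered the same way in all 6 libraries and 23 were not. Over all isoforms, the clear steps were Psmc3 above Psmc5, Psmb7 above Psma7, Psmc4 above Psma6, Psmb2 above Psmc2, Psma4 above Psmd1, Psmd14 above Psmd6, and Psmd12 above Psma2.

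The alpha ring, the gated outer ring of the core, had a summed level of 163.4 to 224.2 TPM over its 7 genes (median 186.3 TPM), or 26.61 TPM per gene at the median library. Psma7 led the ring with 43.25, 38.72, 35.57, 39.83, 35.69 and 44.45 TPM in the order of mouse numbers, lowest in mice 688 and 700 and highest in mice 678 and 703. Psma3 followed at 29.58 to 40.27 TPM and Psma6 at 26.39 to 36.50 TPM. Psma4, Psma1 and Psma5 had medians of 23.68, 21.16 and 21 TPM, and their ranges overlapped. All of these genes encode structural subunits of the ring that gates the chamber.

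The beta ring had the larger summed level of the core, with 237.3 to 305.6 TPM over its 7 genes (median 278.8 TPM), or 39.82 TPM per gene. Its catalytic subunits were all abundant. Psmb5, which carries the chymotrypsin-like site and is the main target of bortezomib, had 49.77, 47.01, 37.23, 44.95, 43.70 and 46.90 TPM. Psmb6, with the caspase-like site, had 55.94, 51.17, 41.72, 47.46, 49.42 and 51.31 TPM, and Psmb7, with the trypsin-like site, had 48.16, 41.16, 37.34, 43.07, 39.18 and 48.03 TPM. Mouse 688 was the lowest library for all 3. Of the non-catalytic beta subunits, Psmb4 was as high as these over all isoforms, at a median of 51.5 TPM (42.43 to 55.38 TPM). Psmb3, Psmb2 and Psmb1 had medians of 36.26, 27.66 and 24.88 TPM. Retained-intron isoforms held 37.0% to 41.2% of Psmb4, and its coding isoform Psmb4-201 had a median of 31.82 TPM. This was below the leading coding isoforms of Psmb5, Psmb6 and Psmb7, at medians of 45.92, 45.56 and 41.97 TPM.

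The ATPase ring, which unfolds the substrate and threads it into the core, summed to 206.1 to 269.5 TPM over 6 genes (median 229.4 TPM), or 38.23 TPM per gene. It had the largest ratio between members of the 5 sub-complexes, as the median TPM of Psmc3 was 2.72 times that of Psmc6. Psmc5 had 62.17, 53.22, 42.32, 46.29, 53.72 and 52.06 TPM and Psmc1 had 52.30, 44.78, 39.86, 42.15, 43.42 and 50.39 TPM. For both, mouse 678 was highest and mouse 688 lowest. Psmc4, Psmc2 and Psmc6 had medians of 31.92, 26.06 and 21.35 TPM.

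The other base subunits differ in role and in level. Psmd2, a scaffold that docks ubiquitin shuttle proteins, had a median of 47.6 TPM (42.85 to 56.04 TPM), while Psmd1, the companion scaffold, had a median of 22.22 TPM (20.13 to 27.68 TPM). In every library the TPM of Psmd1 was below that of Psmd2, as the ranges do not overlap. Psmd4, a receptor for ubiquitin chains, had 41.15, 33.14, 28.44, 31.86, 33.70 and 38.90 TPM.

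The lid summed to 179.4 to 252.1 TPM over 8 genes (median 202.0 TPM), or 25.25 TPM per gene, the lowest of the 5 sub-complexes over all isoforms. With protein-coding isoforms only, the lid held a median 20.69% of member TPM over its 8 genes. The alpha ring then held 17.67% over 7 genes, and was the lowest per gene. Psmd14, the metalloprotease that cuts the ubiquitin chain from the substrate, had 20.93, 20.56, 23.07, 20.82, 17.86 and 26.26 TPM. Its catalytically inactive partner Psmd7 had a higher TPM in each library, at 28.96, 24.86, 27.40, 28.12, 24.31 and 33.36. Of the structural lid subunits, Psmd8 and Psmd3 led at medians of 38.15 and 35.19 TPM over all isoforms. Psmd11 and Psmd13 had 23.97 and 21.35 TPM, and Psmd6 and Psmd12 closed this order at 16.97 and 16.53 TPM. On coding isoforms alone, Psmd13 was below Psmd6 and Psmd12 in every library.

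Ratios within a library do not depend on the scaling between libraries. Summed TPM of the 14 core genes over that of the 17 genes of the 19S particle was 0.842, 0.883, 0.835, 0.871, 0.842 and 0.822, below 1 in 6 of 6 libraries. This direction rested on the number of genes, since the mean TPM per member gave 0.998 to 1.073 and the median over members gave 1.058 to 1.268, above 1 in every library. The ATPase ring exceeded the lid in all 6 libraries, with ratios of summed TPM of 1.299, 1.177, 1.049, 1.080, 1.284 and 1.062, and with 1.399 to 1.732 as the mean per member. The beta ring exceeded the alpha ring in all 6 libraries, with ratios of 1.597, 1.584, 1.310, 1.443, 1.613 and 1.355 for equal numbers of genes. The core to 19S ratio varied over the libraries by 1.074 times, and the other ratios by 1.238 and 1.231 times. In the ATPase to lid and beta to alpha ratios the highest values were those of mice 678, 687 and 700 and the lowest those of mice 688 and 703, with mouse 698 between. Markers of other cells also varied between these libraries, and in these bulk libraries fewer cells of a type and less RNA per cell cannot be told apart. The oligodendrocyte markers Mbp, Mog and Mobp were each among the most variable genes, and these 3 summed to 409.4, 244.0, 268.9, 353.3, 364.7 and 246.4 TPM. Pvalb, a marker of a class of inhibitory neurons, was also among the most variable genes, with 33.56, 27.20, 12.69, 21.97, 26.57 and 14.66 TPM, highest in mice 678, 687 and 700 and lowest in mice 688 and 703 like the ratios, while the oligodendrocyte sum was lowest in mouse 687. All 4 inhibitory neuron markers summed to 243.1 to 322.1 TPM, highest in mouse 703. The striatal markers Drd1 and Adora2a and the blood marker Hbb-bs were among the most variable genes too. Adora2a ran from 0.29 TPM in mouse 700 to 4.29 TPM in mouse 687, and Drd1 from 2.39 TPM in mouse 678 to 6.34 TPM in mouse 703. Hbb-bs ran from 0.95 TPM in mouse 688 to 11.57 TPM in mouse 678. The part of these cells in the ratios was not tested.

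**Figure D2:**
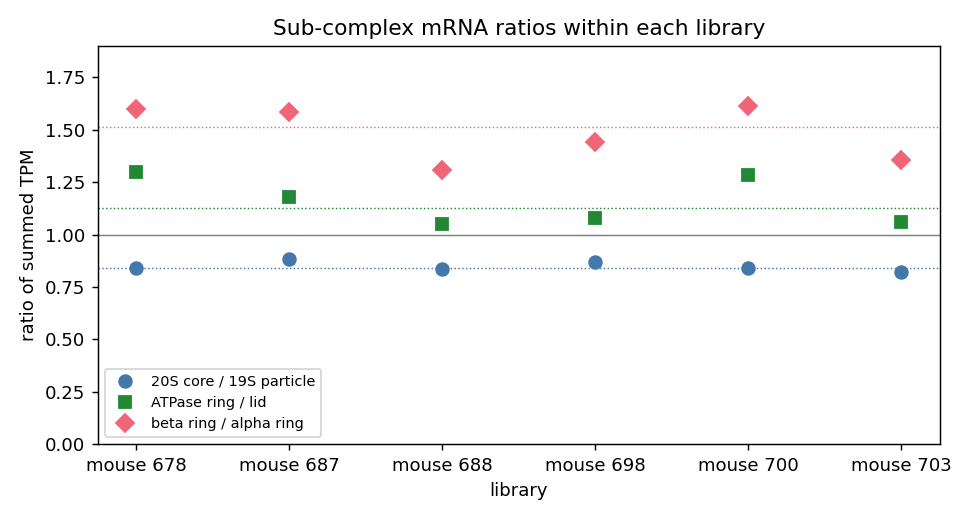
Ratios of summed TPM within each library for core over 19S particle, ATPase ring over lid and beta ring over alpha ring. Dotted lines are medians over the 6 libraries (0.842, 1.128 and 1.513) and the grey line marks equal sums. The core to 19S ratio is nearly level, while the other ratios are highest in mice 678, 687 and 700.

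How strongly each mRNA varied between libraries was measured on CPM, counts scaled to library size, here with TMM factors that set the typical gene equal between libraries. The SD of log2(CPM + 1) across libraries was computed for each gene, the typical SD of genes at a like level was subtracted, and the difference is called excess variability. By that measure 0 of 31 members were among the most variable 5% of all detected genes, and 7 of 31, or 22.6%, were among the least variable 25%. The median excess variability of the members was -0.0118 on the log2 scale (0.0037 without mouse 687), and 19 of 31 lay below the running median. In size, 0 of 31 members had a highest library over 1.5 times the lowest, against 28.2% of all detected genes, and the ratio of highest to lowest CPM had a median of 1.207 for members and 1.306 for all genes. The second comparison is not matched on level, and genes with fewer counts vary more by counting error alone.

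**Figure D3:**
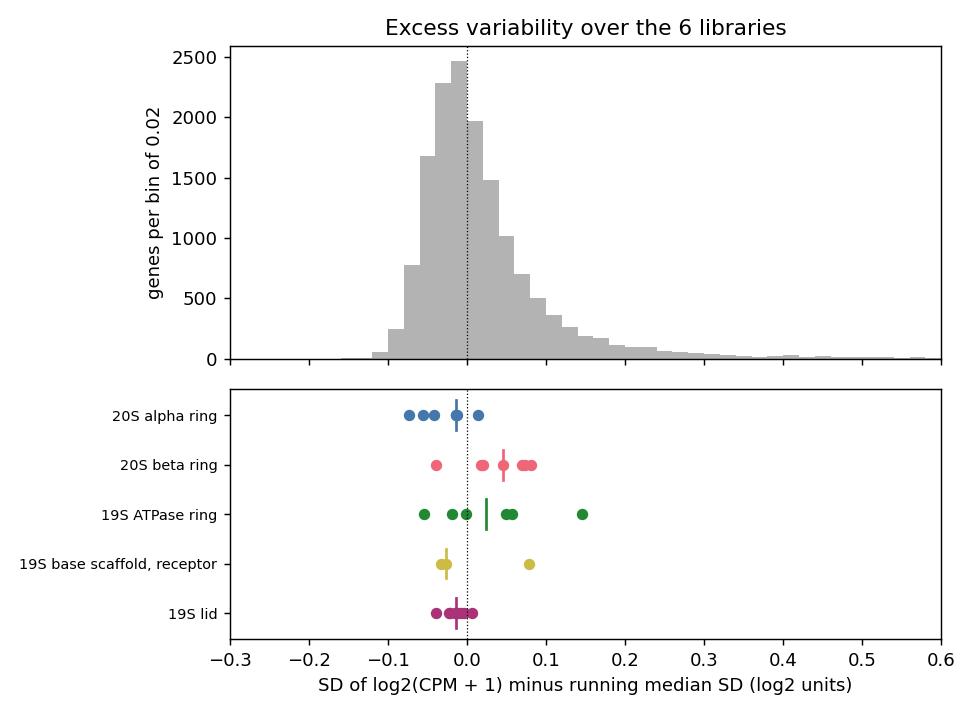
Excess variability of all 15002 detected genes as a histogram (upper panel) and of the 31 members by sub-complex (lower panel, 1 point per gene, vertical bar at the median). The axis is in log2 units, and a value of 0 is that of a typical gene of the same level. Lid and alpha-ring genes lie near or below 0 and most beta-ring genes above it.

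The spread differed between sub-complexes in description. Median excess variability was -0.0142 for the alpha ring, -0.0138 for the lid and -0.0267 for the scaffolds and receptor, and it was 0.0452 for the beta ring and 0.0242 for the ATPase ring. Of the 7 least variable members, Psma3, Psma4 and Psma5 belong to the alpha ring, Psmb2 to the beta ring, Psmc6 to the ATPase ring, Psmd2 to the base and Psmd7 to the lid. Psma3 was the steadiest, with a TMM-scaled CPM of 34.24, 34.25, 33.83, 34.78, 32.78 and 34.85, a ratio of 1.063 between highest and lowest library on counts with a counting error of 2.58% to 2.85% each. At the other end, Psmc5 had a CPM of 72.36, 63.70, 49.00, 52.17, 72.09 and 52.34, a ratio of 1.477. Its excess variability lay at the 92.5 percentile of all detected genes, the highest of the members. Mice 678 and 700 were nearly equal at the top and mice 688, 698 and 703 lay together at the bottom.

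The beta-ring genes shared their lowest library. All 7 of its genes had their lowest CPM in mouse 688, where 15.3% of all detected genes had theirs, and 17 of 31 members were lowest there. Summed over the ring, CPM differed 1.309-fold between the highest and lowest library, against 1.068-fold for the alpha ring. Psmb6 had a CPM of 35.42, 33, 26.12, 29.04, 35.92 and 27.86, Psmb4 had 45.67, 45.47, 34.25, 39.73, 46.85 and 38.06, and Psmb5 had 37.08, 35.84, 27.47, 32.41, 37.34 and 30.08. For these genes the libraries of mice 678, 687 and 700 had the highest values and that of mouse 688 the lowest. The ubiquitin receptor Psmd4 differed 1.423-fold in CPM, with 45.87, 38.60, 32.23, 36.08, 43.90 and 38.08, so that mouse 687 and mouse 703 were close. The lid showed another order, as 5 of its 8 genes were highest in CPM in mouse 703, where 20.9% of all detected genes had their highest value, and their summed CPM differed 1.098-fold between libraries. In TPM, mouse 703 was highest for 23 of 31 members, and in TMM-scaled CPM for 10 of 31. The share of all detected genes highest there in TPM was not computed. The typical gene differed between TPM and TMM-scaled CPM by 0.204 on the log2 scale in that library and by -0.194 in mouse 700, and the order of libraries in TPM includes this shift. A library far from the other 5, by the ratio of its gap to the whole range, was found in TPM for 1 of 31 members (Psmd6 in mouse 703), against 7.04% of all detected genes, and in TMM-scaled CPM for 0 of 31, against 5.27%.

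**Figure D4:**
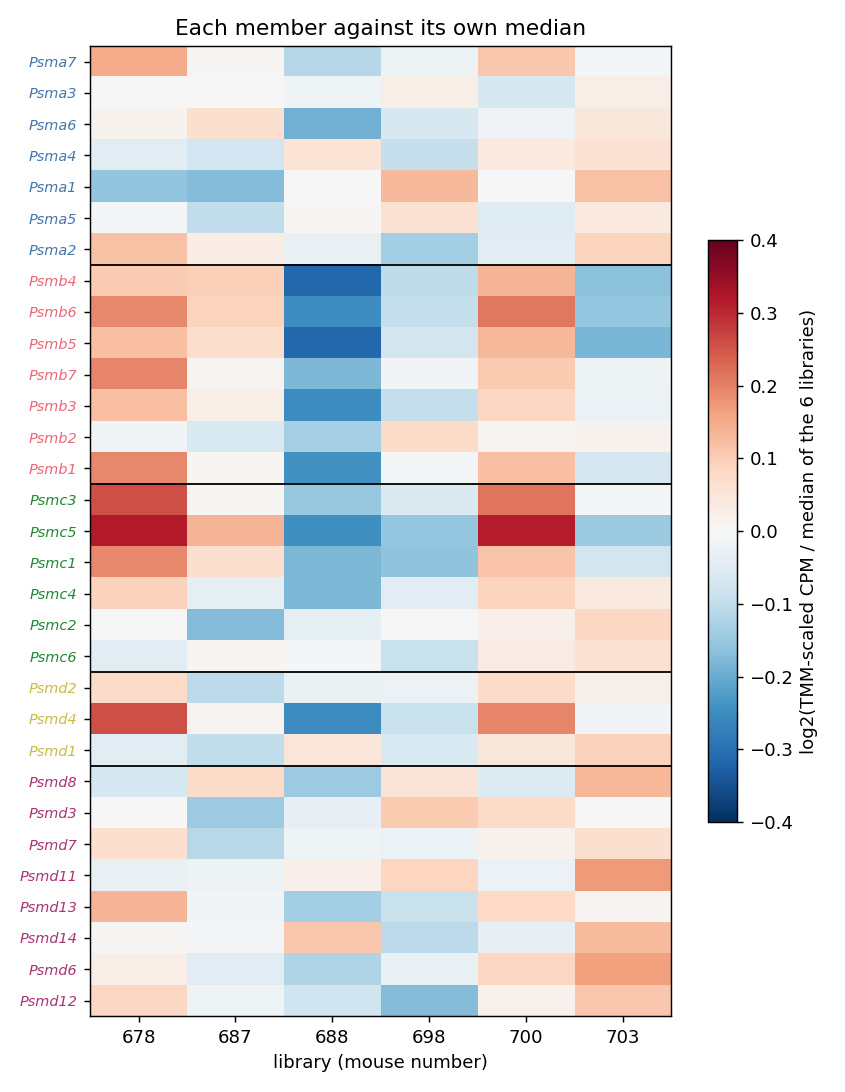
TMM-scaled CPM of each member in each library as log2 of the ratio to the member's own median over the 6 libraries, with red above and blue below the median. Black lines separate the alpha ring, beta ring, ATPase ring, base scaffolds and receptor, and lid from top to bottom. The 7 beta-ring genes are blue in mouse 688, and Psmc5 spans the widest range.

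The study concerns Larp1, a protein that binds mRNAs starting with a terminal oligopyrimidine (TOP) motif, which is a C at the first base followed by a run of pyrimidines and marks mRNAs of the translation machinery. The annotated starts of the leading isoforms were therefore read from the GENCODE M21 transcripts on GRCm38. A start with C and at least 4 pyrimidines after it was found in 0 of 31 members and in 2.35% of 13618 detected genes. In any annotated isoform it was again found in 0 of 31 members, against 10.7% of genes. The first base was C for 4 of 31 members (12.9%, against 18.0% of genes) and a pyrimidine for 7 of 31 (22.6%, against 28%). Annotated ends are not mapped start sites, and in the first bases below a shift by a few bases would matter for Psmc6, Psma1 and Psmd2, the 3 of 31 (9.68%, against 10.8% of genes) in which the motif begins up to 5 bases further in. Shown are the first 20 bases of these and of Psmc3, the member with the highest TPM over all isoforms. Also shown are those of the most variable member Psmc5, the main catalytic subunit Psmb5, Psmb4 with its short pyrimidine start, and the members that begin with C. Capitals mark the pyrimidines at the very start.
Psmc6, chromosome 14, start 45329788, plus strand: TCCCCCgcccgggctgccat
Psma1, chromosome 7, start 114276118, minus strand: acttcctgcgtcgccgccgt
Psmd2, chromosome 16, start 20651652, plus strand: ggccttctgggaaaaggggc
Psmc3, chromosome 2, start 91054009, plus strand: gcagcccagccctcgctccc
Psmc5, chromosome 11, start 106256154, plus strand: gacttggatgccggcgatcc
Psmb5, chromosome 14, start 54618022, minus strand: TCggaggcagttcctgttgc
Psmb4, chromosome 3, start 94886961, minus strand: TTCCgtttccggtgacgcta
Psmd3, chromosome 11, start 98682554, plus strand: CTggcatttcccagaagccc
Psmd8, chromosome 7, start 29180552, minus strand: CCagttttgggctccacctc
Psmc4, chromosome 7, start 28050101, minus strand: Caagatgctctatgtgaagg
Psmd11, chromosome 11, start 80428625, plus strand: Cgtcggcggccgcggccggg

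Transcription of proteasome genes is known to be raised by Nfe2l1, a factor that binds antioxidant response elements when proteasome activity falls. RefSeq promoter windows of GRCm38.p6, from 250 bases before to 50 bases after the annotated start, were found for 25 of 31 members, and Psmb1, Psmb2, Psmb7, Psmc3, Psmd3 and Psmd7 had no entry. The letters TGACNNNGC, on either strand, occurred in 4 of 25 members, or 16.0%, against 16.6% of detected genes and 12.4% of all 32851 promoters, a share near that of detected genes. The stricter letters TGACTCAGC occurred in 0 of 25 members and in 0.461% of detected genes. The 4 matches are shown on the strand of the gene because they spell the element this factor is known to bind, with the matching letters in capitals. A match here is a description of letters, not a bound site.
Psmb6, chr11:70525338-70525366, plus strand, 9 bases before the start: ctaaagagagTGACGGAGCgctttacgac
Psmb5, chr14:54618024-54618052, minus strand, 47 bases before the start: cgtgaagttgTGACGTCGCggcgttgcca
Psmc6, chr14:45329587-45329615, plus strand, 227 bases before the start: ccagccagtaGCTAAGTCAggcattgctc
Psmd12, chr11:107479278-107479299, plus strand, 247 bases before the start: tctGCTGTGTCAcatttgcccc

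Another motif was unevenly placed between genes of the core and of the 19S particle. The ETS site CCGGAAG, a common element of promoters of housekeeping genes, occurred on either strand in 10 of 25 members, or 40%, against 18.7% of detected genes and 8.86% of all promoters. Of these 10, 9 were among the 14 matched genes of the 19S particle (64.3%) and 1, Psma6, among the 11 matched genes of the core (9.09%). The CCAAT box, searched as CCAAT on either strand, occurred in 10 of 25 members, or 40%, against 42.7% of detected genes, in 6 of 11 core genes and 4 of 14 genes of the 19S particle. Both motifs were added after the data had been seen, and the difference between core and 19S particle was not tested. A site in each of the 9 genes of the 19S particle is shown (in Psmc2, which also has one at another RefSeq start within the gene, that at the outer start) on the strand of the gene, since these genes carry this difference, with the site in capitals (CTTCCGG is the site on the other strand). Distances are from RefSeq starts. Counted from the GENCODE start of the leading isoform, the sites of Psmc1 and Psmd12 begin 20 and 27 bases after the first base, inside the transcript, and the other 7 before it. In Psmd13 that isoform is Psmd13-211. Its coding isoform Psmd13-201 starts further upstream, at 140881968, so the site lies within the span of Psmd13-201.
Psmc1, chr12:100110164-100110190, plus strand, 28 bases before the start: ggtggatgcaCTTCCGGcggtggcgat
Psmc2, chr5:21785181-21785207, plus strand, 84 bases before the start: ccagtgagcaCTTCCGGgatggggctc
Psmc6, chr14:45329714-45329740, plus strand, 100 bases before the start: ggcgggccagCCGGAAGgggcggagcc
Psmd2, chr16:20651616-20651642, plus strand, 26 bases before the start: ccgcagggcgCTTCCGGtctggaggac
Psmd4, chr3:95042723-95042749, minus strand, 125 bases before the start: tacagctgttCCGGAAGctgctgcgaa
Psmd6, chr14:14120974-14121000, minus strand, 45 bases before the start: agagacgcgaCCGGAAGtcagactggc
Psmd11, chr11:80428594-80428620, plus strand, 11 bases before the start: gagggcgggtCTTCCGGgtgtgtgttt
Psmd12, chr11:107479501-107479527, plus strand, 17 bases before the start: gagcgggcgaCTTCCGGtgcgagtgac
Psmd13, chr7:140882378-140882404, plus strand, 6 bases before the start: gcccgcggtgCCGGAAGtgagcgagca

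The 31 genes lie on 14 chromosomes, with 6 of them (Psmb6, Psmd11, Psmb3, Psmd3, Psmc5 and Psmd12) on chromosome 11. The closest pair, Psmb4 (chromosome 3, 94884093 to 94886961) and Psmd4 (chromosome 3, 95032694 to 95042614), is 145.7 kb apart on the minus strand. Both were highest in CPM in mice 678 or 700 and lowest in mouse 688. This was common among the 31 members, of which 12 were highest in mouse 678, 4 highest in mouse 700 and 17 lowest in mouse 688. The shares of all detected genes were 16.2%, 14.7% and 15.3%, so the share of members highest in mouse 700 was not above that of all genes.

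The deposited values are per transcript, so the isoforms behind each level could be read. The annotation lists 176 isoforms for the 31 genes, and isoforms annotated as protein coding held 89.1% to 91.2% of the summed TPM of the members. In 22 of 31 genes a single isoform held at least 80% of the TPM in every library. The other 9 were Psma2, Psma3, Psmb4, Psmc3, Psmc6, Psmd4, Psmd11, Psmd12 and Psmd13. RSEM divides reads between isoforms that share exons, and shares of short isoforms rest on few bases.

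For Psma3 and Psmd13 the isoform with the highest median TPM was one annotated for nonsense-mediated decay, the pathway that removes mRNAs with a premature stop. Psma3-201 held 36.4%, 36.3%, 28.9%, 37.8%, 43.8% and 40.6% of the TPM of Psma3, and the protein-coding isoforms together held 32.7% to 49.8%. In mouse 688 the coding isoform Psma3-204 led instead, with 39.0%. Psmd13-211 held 35.7% to 47.6% of the TPM of Psmd13 (median TPM 9.16), while the coding isoforms Psmd13-201 and Psmd13-208 had median TPM values of 5.78 and 5.16. By expected count, which favours longer transcripts, a coding isoform led in both genes, and these were the only 2 of 31 members in which the leader changed. The retained-intron class reached 37.0% to 41.2% of Psmb4 and 19.2% to 33.5% of Psmc6, in which coding isoforms held 45.2% to 66.7%. The retained-intron isoform Psmc6-203 held 21.9%, 13.9%, 1.1%, 19.3%, 12.1% and 13.0% of Psmc6, lowest in mouse 688. Another short retained-intron isoform, Psmc6-205, held 7.6%, 0.4%, 12.1%, 2.7%, 12.7% and 8.7%, and was not low in mouse 688. In Psma2, Psmd4 and Psmd12 the minor isoform was also protein coding. Psmd4-202, for example, held 62.9% to 71.2% of Psmd4 and Psmd4-201 27.5% to 32.9%.

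**Figure D5:**
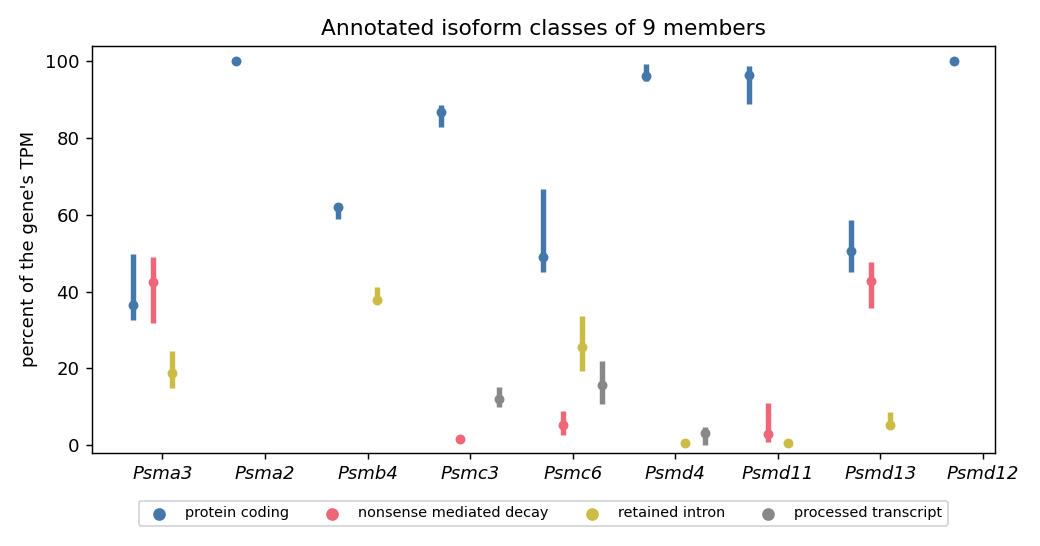
Share of the gene's TPM held by each annotated class of isoform, for the 9 members in which no isoform held at least 80% in every library. Points are medians and bars run from the lowest to the highest of the 6 libraries. In Psma3 and Psmd13 the class annotated for nonsense-mediated decay had a median near that of the protein-coding class (42.6% and 36.5%, 42.7% and 50.5%).

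Copies of these genes elsewhere could take or give reads. Of the 31 members, 16 shared no run of 50 bases with a transcript of another gene and 9 shared over 5% of their 50-base runs. Psma3 shared 74.1% with the pseudogene Gm13835, itself listed at 2.17 to 3.34 TPM. Psmb5 shared 57.1%, Psmb3 55.8% and Psma5 54.5%, mainly with gene copies that did not exceed 0.63 TPM. Psmb5 also contains the miRNA gene Mir686 on its own strand, listed at up to 11.45 TPM. Levels of these genes are less certain for this reason. Psmd13 overlaps Sirt3 on the opposite strand, which was listed at 20.01 to 23.47 TPM. The kit named in the labels keeps the strand, but the sources used do not say whether RSEM was set to use it. Psma2 overlaps AW209491 on the same strand (4.63 to 6.06 TPM).

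Partners of the proteasome were described from lists of related genes, of which 33 are reported and 30 were detected. Of the 30 detected, 1 (Rps27a) was among the most variable genes, against 5% of all detected genes. Another 7 were among the least variable, against 25%. Neither share was above that of all detected genes. The list of inducible and tissue-specific core subunits was mostly silent. Psmb8 and Psmb9, which replace beta subunits in the immunoproteasome, had medians of 0.79 and 0.41 TPM, and the thymic Psmb11 and testicular Psma8 did not exceed 0.09 and 0.12 TPM. Psmb10, also an immunoproteasome subunit, had a median of 23.9 TPM (21.96 to 28.91 TPM), but its protein-coding isoform held 5.10 to 7.98 TPM and the rest lay in retained-intron and processed isoforms. The constitutive counterparts Psmb5, Psmb6 and Psmb7 stood at 45.92, 50.3 and 42.11 TPM.

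Of the activators, which open the core without the 19S particle, Psme3 led at a median of 26.94 TPM and Psme1 followed at 13.93 TPM. Psme2, the partner of Psme1, varied most in this list, with 12.44, 15.43, 7.66, 8.50, 9.88 and 10.08 TPM, while Psme4 was among the least variable genes at a median of 4.36 TPM. Among the chaperones that assemble the core, Pomp was by far the highest at a median of 40.09 TPM, a level like that of the subunits, and Psmg1, Psmg2, Psmg3 and Psmg4 had medians of 4.19 to 5.86 TPM. Psmg3 and Psmg4 differed most between libraries, 1.737- and 1.82-fold in CPM, on counts of 92 to 163 and 55 to 108. The chaperones of the 19S base Psmd5, Psmd9 and Psmd10 had medians of 10.06, 6.86 and 4.76 TPM, and Paaf1 was not analysed here. The ubiquitin receptor Adrm1 had a median of 24.58 TPM and the deubiquitinases Usp14 and Uchl5, which dock on the 19S particle, 32.76 and 9.43 TPM. Sem1, the small subunit of the lid, had 9.73 TPM.

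Nfe2l1, the regulator named above, had a median of 86.94 TPM, above every subunit, and a CPM that differed 1.078-fold between libraries, among the least variable genes. Its relative Nfe2l2 had a median of 3.15 TPM. Vcp, the segregase that extracts ubiquitylated proteins, had 55.89 TPM, and Ddi2 and Ngly1, the protease and the deglycosylase that activate Nfe2l1, had 9.56 and 5.65 TPM. Of the factors that deliver ubiquitylated proteins, Sqstm1 led at 127.56 TPM, followed by Ubqln2 at 64.32 TPM, Rad23b at 55.95 TPM and Ubqln1 at 38.76 TPM. Coding isoforms held 23.53 to 34.67 TPM of Rad23b and 33.20 to 43.38 TPM of Ubqln1, so on coding isoforms Rad23b came after Ubqln1.

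Genes for ubiquitin itself gave the widest contrast. Ubb, a polyubiquitin gene, had the highest median at 653.53 TPM and was among the least variable genes, with a CPM ratio of 1.145. Rps27a, which encodes ubiquitin fused to a ribosomal protein, was among the most variable genes. It had 116.13, 104.31, 37.74, 36.74, 101.01 and 42.86 TPM, and the 3 highest values were those of mice 678, 687 and 700. The leading isoform of Rps27a, on chromosome 11 with its start at 29547860 on the minus strand, begins with a run of 5 pyrimidines, in capitals, unlike that of most proteasome members. Psmc6 begins with a run of 6. The first annotated base of Rps27a is T, so the search for starts with C did not count this ribosomal protein gene either.
Rps27a, first 20 bases: TTTCCgatccgccatcgtgg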

How the data were processed

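RNA of mouse cortex was sequenced after rRNA depletion. Reads were processed by the authors with cutadapt, STAR (mm10) and RSEM, per the methods and the submitters' processing notes, which give no versions. Gene-level values with UCSC annotation are named in the methods, while the deposited tables hold 142351 Ensembl transcripts per library. The authors deposited expected counts (estimated counts per transcript, not normalized), TPM and an effective length in bases (other), and 18 value columns of these were used. Another 12 value columns, FPKM and isoform percentages, were not used. As mouse numbers match no labelled sample, 0 columns were matched to a sample or genotype.

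Transcripts were matched to GENCODE M21 (99.36%, with the unmatched 910 holding 0.246% to 0.272% of counts), and TPM and expected counts were summed per gene symbol. Counts were rounded and scaled with TMM (edgeR 4.0.16, R 4.3.3). Genes were kept if no library had a count under 10. Excess variability was the SD of log2(CPM + 1) across libraries less its running median over 501 genes ordered by mean, and the top 5% and bottom 25% were called most and least variable. The calculation was tested on simulated data. Dixon's ratio (limit 0.625 for 6 values) marked a library far from the others. Libraries differed beyond sampling noise (chi-square over degrees of freedom of 14.8 to 67.5 in 15 pairs). Runs of 50 bases were compared between members and all other GENCODE transcripts. Transcript starts came from GENCODE and promoters from RefSeq (GRCm38.p6). Intervals given as counting error cover counting alone.

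Members and lists were chosen with earlier results of these data known. All 31 members were named, and related genes from fixed lists. Because so few related genes were listed, nearly all were printed rather than the 2 highest and the 2 most variable of each list that the rule names first. Some genes of the fixed lists are not reported here and were left out of list counts and sums. The planned edgeR quasi-likelihood test of Larp1 WT against cKO was not run.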

Additional observations from a re-analysis of the deposited data

Results flagged for a closer look

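Among the members, 1 of 31 (3.23%) had a library far from the other 5 in TPM, against 7.04% of all detected genes, and chance alone sets about 1 in 20 such groups apart. This was Psmd6, a lid subunit, at 22.44 TPM in mouse 703 and 16.03 to 17.79 TPM in the others. On TMM-scaled CPM it was not apart, and 0 of 31 members were, against 5.27% of detected genes.

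Of the related genes, Psmf1, an inhibitor of the core, was at 14.96 TPM in mouse 703, Nfe2l1 at 106.03 TPM and Rad23b at 78.04 TPM in the same library, each above the other 5 libraries, in which they reached 11.08, 88.89 and 57.61 TPM. In mouse 703 the typical gene lay 0.204 higher on the log2 scale in TPM than in TMM-scaled CPM. The immunoproteasome gene Psmb8 was at 1.37 TPM in mouse 687 and 0.66 to 0.90 TPM in the others, on counts of 19 to 52.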

How the results depend on the processing

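Of 61 alternative values, 45 stayed near the one reported. With protein-coding isoforms only, the share of member TPM moved from 18.61% to 17.67% for the alpha ring and from 10.43% to 11.24% for the base scaffolds and receptor. The alpha ring, and no longer the lid, was then the lowest per gene. With the median over members in place of the sum, the core to 19S ratio turned to 1.151, the ATPase ring to lid ratio rose to 1.659 and the beta to alpha ratio to 1.759. The last was 1.207 on TMM-scaled CPM, which is not per length. The number of least variable members was 11 with no filter on low counts, and 5 to 8 with each library left out. The number of most variable members stayed at 0 under each alternative run. The median excess variability, -0.0118, ran from -0.0141 to 0.0037 with each library left out, so its sign rests on the library of mouse 687. The summed members differed between highest and lowest library by 1.273 in TPM, 1.107 in TPM over nuclear protein-coding genes, 1.141 in TMM-scaled CPM and 1.138 with DESeq2 1.42.0 size factors, and the highest library became mouse 678 in each of the last 3. TOP starts rose from 0 to 3 of 31 when a start up to 5 bases further in was allowed, and antioxidant response elements fell from 4 to 0 of 25 with the strict letters. Members with a library apart went from 1 to 0 on TMM-scaled CPM. The cause was not tested in each case. The beta to alpha ratio, the CPM form of Dixon's ratio, the mean per member, the 1.5-fold limit and 2 promoter motifs were added after the data were seen. No paired analysis was possible because no library is tied to a labelled replicate, and the alternatives planned for the genotype comparison were not run for the same reason.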

Other observations

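The ribosomal protein mRNAs, 78 genes with Fau among them, held 5.63%, 5.48%, 2.52%, 2.53%, 5.65% and 2.53% of the TPM of nuclear protein-coding genes in mouse 678, 687, 688, 698, 700 and 703. Beside these, the beta to alpha ratio of the proteasome was 1.597, 1.584, 1.310, 1.443, 1.613 and 1.355 in the same libraries. The 3 highest values of each were those of mice 678, 687 and 700, whose genotypes are not known here. A correlation is not given because the ribosomal shares fall into separate clusters.

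Separate clusters mean that 1 gap between sorted log2 values was wider than the spread above it and the spread below it. In TMM-scaled CPM this held for 10 of 31 members (32.3%), against 40.5% of all detected genes, and in TPM for 8 of 31 (25.8%), against 38.9%.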
